A study of Homo sapiens with 18 samples.

Results

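The lysosome and autophagy genes described here are 43 named genes whose transcripts were read on 18 arrays of HCC4006 cells. They were chosen by name for their role, with earlier results of these data known: proteases, glycan and sulfate hydrolases, lipid-handling factors and membrane proteins of the lysosome, subunits of its proton pump, the transcription factors TFEB and TFE3, and autophagy factors. Of the 43 genes, 41 had an array feature that names them alone, and all 41 passed a filter on low values and entered the tests among 16338 genes in all. GLB1 and NPC2, which encode acid beta-galactosidase and a cholesterol-binding protein, lie on features that also name another gene and were not tested.

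Lysosomes are acid compartments in which hydrolases break down protein, glycogen, glycolipids and nucleic acids delivered by endocytosis and autophagy. The pump that acidifies them, the V-ATPase, consists of a membrane sector (V0) and an ATP-hydrolyzing sector (V1). In autophagy, membranes grow around cytoplasm, are marked with ubiquitin-like proteins of the LC3 and GABARAP families, and fuse with lysosomes. TFEB and TFE3 bind E-boxes in the promoters of many lysosomal genes (the CLEAR element), and the kinase complex mTORC1 keeps them in the cytoplasm when nutrients are plentiful, so that their activity is set largely by where the proteins are and not by how much transcript there is.

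HCC4006 is an established lung adenocarcinoma line with a mutant EGFR. All cells were transfected with an siRNA, either non-targeting control (NTC), Notch1 (N1) or Notch3 (N3), and then received DMSO as vehicle or 0.1 µM erlotinib, which inhibits the EGFR kinase, and this gave 6 groups of 3 arrays. The N3 erlotinib arrays are numbered 4 to 6 and those of every other group 1 to 3, and the reason is not stated. Its part in the results with N3 was not tested. The deposited design text gives 5 days of treatment, and the study's own text gives a different time. The knockdowns were transient, 1 siRNA sequence pair being stated for each of Notch1 and Notch3. The cells were measured in bulk, so less RNA per cell and fewer cells of a kind cannot be told apart, and whether the 3 arrays of a group stand for separate cultures is not stated, so p values measure only the spread between arrays, which may be technical.

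Levels are log2 values after robust multi-array averaging (RMA), and a difference between groups is a log2 fold change, on which 1 unit is a fold change of 2. Array medians ran from 4.84 to 4.95 in DMSO and from 4.94 to 5.01 in erlotinib, so centring each array on its median moves the erlotinib comparisons down. The 8 lung epithelial markers checked all passed the filter (CDH1 from 10.48 to 11.04 over the group means, NKX2-1 from 7.13 to 7.49), as did 4 of 7 leukocyte, 3 of 5 fibroblast and 3 of 4 endothelial markers. PTPRC, AIF1 and CD163, DCN and LUM, and PECAM1 lay above the array median on 0 of 18 arrays, CD14 on 9 and CDH5 on 15, and CSF1R, TYROBP and MARCO, COL1A1, COL1A2 and PDGFRB, and VWF and KDR on all 18. The mean level over the fibroblast markers was 4.54 to 4.60 in the DMSO groups and 4.77 to 4.88 in the erlotinib groups. Among these markers, the group means of COL1A2 ranged most, from 5.93 to 6.98. Over all groups, the mean level of the leukocyte markers was 4.72 to 4.83 and that of the endothelial markers 4.76 to 5.03. The part of the fibroblast, leukocyte and endothelial markers in the results was not tested. NOTCH3 transcript was lower with N3 than with NTC by the same log2 fold change of -0.57 in DMSO and in erlotinib. NOTCH1 fell by 0.30 with N1 in DMSO (limma adjusted p = 0.000291), while in erlotinib it differed by -0.08 with N1 (limma adjusted p = 0.214). In NTC cells NOTCH1 was itself lower with erlotinib (log2 fold change -0.18, limma adjusted p = 0.00222). The mean with N1 was 6.54 in DMSO and 6.58 in erlotinib. By western blot, the study found each knockdown specific and apparently complete at the protein level. NOTCH3 was higher with N1 than with NTC in erlotinib, by 0.25 (limma adjusted p = 0.00818), and N3 against N1 there gave -0.82 for NOTCH3.

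The promoters of the genes were read first, because the TFEB and TFE3 motif is what many of them are known to share. RefSeq promoter windows (GRCh38.p14, 250 bases before to 50 after the start) were matched for 32 of the 43 genes. The E-box CACGTG, which reads the same on both strands, was in 11 of the 32 windows (34.4%) and in 8.56% of the 15247 windows of genes on the array. The longer letters GTCACGTG, searched on both strands (CACGTGAC on the other), contain that E-box and were in 7 of the 32 (21.9%) and in 3.37% of the array's genes. These 7 windows are shown because they carry the CLEAR-like letters. Each runs from 25 bases before the E-box found farthest upstream to at most 25 after the last, with the E-boxes in capitals.
GAA: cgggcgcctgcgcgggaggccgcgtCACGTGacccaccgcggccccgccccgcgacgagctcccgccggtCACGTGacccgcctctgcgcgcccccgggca
MCOLN1: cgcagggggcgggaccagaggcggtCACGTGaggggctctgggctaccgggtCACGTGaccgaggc
CTSA: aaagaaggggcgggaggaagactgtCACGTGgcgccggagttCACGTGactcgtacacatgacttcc
CTSD: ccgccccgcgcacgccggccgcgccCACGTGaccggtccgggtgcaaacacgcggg
CLN3: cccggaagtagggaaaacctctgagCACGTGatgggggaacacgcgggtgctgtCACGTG
LAMP1: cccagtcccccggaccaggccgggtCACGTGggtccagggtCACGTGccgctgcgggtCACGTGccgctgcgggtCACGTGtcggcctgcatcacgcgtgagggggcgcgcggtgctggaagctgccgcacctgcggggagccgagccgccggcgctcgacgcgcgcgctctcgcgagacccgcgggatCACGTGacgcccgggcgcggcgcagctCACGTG
ATP6V0D1: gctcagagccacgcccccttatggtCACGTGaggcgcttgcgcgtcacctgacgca

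These stretches lie at chr17:80101480-80101580 on the plus strand for GAA, chr19:7522558-7522623 on the plus strand for MCOLN1 and chr20:45891268-45891334 on the plus strand for CTSA. Those of CTSD, CLN3 and ATP6V0D1 lie on the minus strand at chr11:1763944-1763999, chr16:28492070-28492129 and chr16:67481186-67481241, and that of LAMP1 at chr13:113297022-113297243 on the plus strand. The LAMP1 window holds 6 E-boxes, those of GAA, MCOLN1, CTSA and CLN3 hold 2 each, and those of CTSD and ATP6V0D1 hold 1. GTCACGTG directly followed by AC, a palindrome, occurred in GAA and MCOLN1 among the 32 and in 0.531% of the array's genes. A match is a description of the letters in a window and not evidence of binding in these cells.

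In NTC cells, erlotinib was accompanied by higher transcripts of lysosomal proteases and several hydrolases and by lower transcripts of a pair of proton pump subunits, of GLA and of BNIP3. At an adjusted p under 0.05 (limma, Benjamini-Hochberg over all 16338 genes), 19 of the 41 genes were higher with erlotinib, 9 were lower and 13 did not pass. Erlotinib changed much of the transcriptome: 50% of all genes tested were called in this comparison, 24.6% higher and 25.4% lower, and the counts of the 41 genes are to be read against those shares. Arrays of the treatments did not overlap for 20 of the 41 genes upward and 11 downward, against 25.9% and 27.2% of all genes. The median log2 fold change was 0.08 for the 41 genes and -0.02 for all genes. After centring each array on its median, 13 were called higher and 11 lower. Centring also moved the calls over all genes, of which 49.2% were higher before it and 37.6% after. Counts after centring, here and below, are therefore not to be read against shares from the deposited values.

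**Figure D1:**
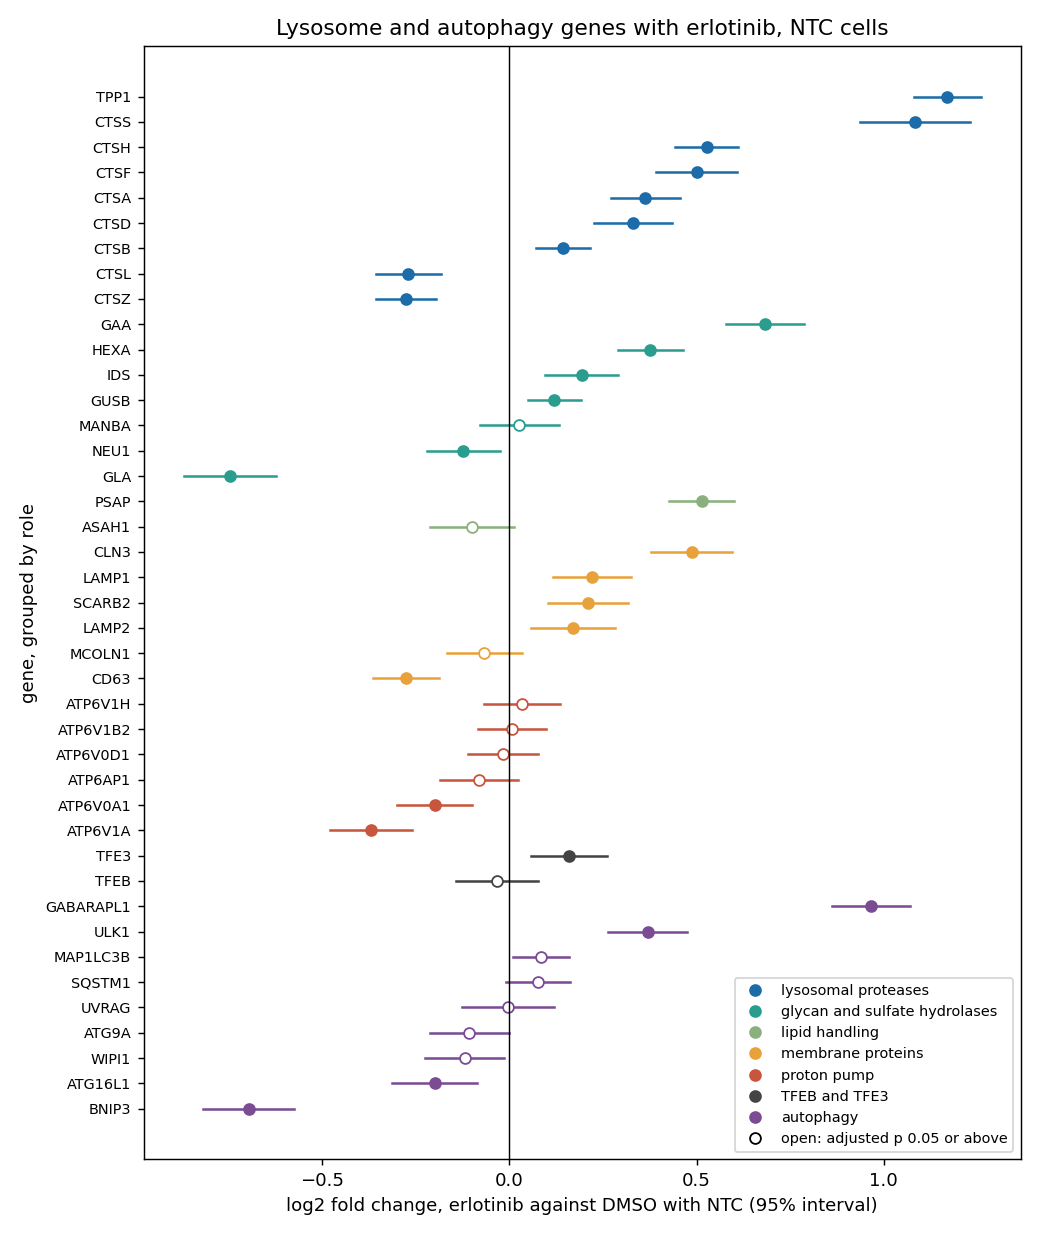
Log2 fold change of erlotinib against DMSO in NTC cells for the 41 genes tested (x axis), grouped by role (y axis, colors), with 95% intervals from limma; filled points have an adjusted p under 0.05. TPP1, CTSS and GABARAPL1 lie farthest to the right at 1.17, 1.08 and 0.97, GLA and BNIP3 farthest to the left at -0.75 and -0.70, and none of the 6 proton pump subunits was called higher.

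All 9 lysosomal proteases were called in NTC cells, 7 higher and 2 lower. TPP1, tripeptidyl peptidase, which trims peptides from the N terminus, was 7.71, 7.63 and 7.69 on the NTC DMSO arrays and 8.90, 8.82 and 8.82 on the NTC erlotinib arrays. All erlotinib arrays were thus far above all DMSO arrays, and the log2 fold change was 1.17 (standard error, SE, 0.042, limma adjusted p = 3.55e-13). CTSS, cathepsin S, a cysteine protease best known for cutting the invariant chain of MHC class II, was 6.26, 6.38 and 6.39 in DMSO and 7.50, 7.34 and 7.44 in erlotinib (log2 fold change 1.08, SE 0.069, limma adjusted p = 7.23e-10). Its arrays did not overlap either, and TPP1 and CTSS were the only ones of the 41 genes to pass the thresholds of the study's methods, an unadjusted p under 5e-04 with a fold change of at least 2, which 3.65% of all genes passed (1.36% upward).

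Smaller increases were measured for CTSH (0.53), an aminopeptidase known in lung for processing surfactant protein B, for CTSF (0.50), for the carboxypeptidase CTSA (0.36), for the aspartic protease CTSD (0.33) and for CTSB (0.14). CTSL, an endopeptidase, and CTSZ, a carboxypeptidase, were lower, with log2 fold changes of -0.27 and -0.28. CTSB was no longer called after median centring (limma adjusted p = 0.0906). CTSL has a close paralog, CTSV, and how the feature divides signal between them was not tested.

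Hydrolases of glycans and sulfates moved in both directions: 4 of 7 were higher, 2 were lower and MANBA, beta-mannosidase, had a log2 fold change of 0.03. GAA, acid alpha-glucosidase, which degrades glycogen, was higher by 0.68, and HEXA, the alpha subunit of beta-hexosaminidase, by 0.38, with smaller increases of 0.19 for IDS, iduronate sulfatase, and 0.12 for GUSB, beta-glucuronidase. IDS and GUSB lost their call after median centring (limma adjusted p = 0.0709 and 0.244). In contrast, GLA, alpha-galactosidase A, which removes galactose from glycosphingolipids, was 8.62, 8.71 and 8.82 in DMSO and 8.02, 7.87 and 8.02 in erlotinib. No erlotinib array reached the lowest DMSO array, and the log2 fold change was -0.75 (SE 0.058, limma adjusted p = 1.00e-08). NEU1, a sialidase, had a log2 fold change of -0.12, but leaving out any of 5 of the 6 arrays ended the call, with adjusted p from 0.0550 to 0.0961. Without NTC DMSO replicate 2 it was still called.

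Among factors that handle lipids, PSAP, the precursor of the saposins that present sphingolipids to hydrolases, was higher by 0.51, and ASAH1, acid ceramidase, had a log2 fold change of -0.10 (limma adjusted p = 0.131). Of the 6 membrane proteins, 4 were higher: CLN3 by 0.49, the abundant membrane glycoproteins LAMP1 and LAMP2 by 0.22 and 0.17, and SCARB2, the receptor that carries beta-glucocerebrosidase to lysosomes, by 0.21. CD63, a tetraspanin of late endosomes, was lower (log2 fold change -0.28), and the calcium channel MCOLN1 had a log2 fold change of -0.07. LAMP2 was no longer called when NTC erlotinib replicate 1 was left out (adjusted p = 0.0623), and LAMP2 and SCARB2 lost it after median centring (adjusted p = 0.161 and 0.0539).

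None of the 6 proton pump subunits was called higher, 2 were lower and 4 had log2 fold changes between -0.08 and 0.03. ATP6V1A, the catalytic subunit of V1, was 9.12, 9.16 and 9.05 in DMSO and 8.76, 8.71 and 8.75 in erlotinib, without overlap (log2 fold change -0.37, SE 0.052, limma adjusted p = 1.12e-05). ATP6V0A1, a subunit of V0, was lower, with a log2 fold change of -0.20.

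TFEB transcript was 5.95, 5.82 and 5.75 on the NTC DMSO arrays and 5.77, 5.85 and 5.80 on the NTC erlotinib arrays. The groups overlapped, and the difference was -0.03 with a 95% interval from -0.14 to 0.08 (limma adjusted p = 0.642). TFE3 was 7.56, 7.61 and 7.67 in DMSO and 7.82, 7.78 and 7.72 in erlotinib, a log2 fold change of 0.16 (SE 0.048, limma adjusted p = 0.00994). The arrays did not overlap, but after median centring the TFE3 difference was 0.11 (limma adjusted p = 0.133).

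Of the 9 autophagy factors, 2 were higher and 2 lower. GABARAPL1, a ubiquitin-like protein of the autophagosome, was 6.09, 6.19 and 6.20 in DMSO and 7.14, 7.12 and 7.12 in erlotinib, a log2 fold change of 0.97 (SE 0.049, limma adjusted p = 3.70e-11). ULK1, the kinase that starts autophagy, was higher by 0.37. BNIP3, a mitochondrial receptor for autophagy and a known hypoxia target, was 8.26, 8.38 and 8.43 in DMSO and 7.76, 7.61 and 7.61 in erlotinib. All its erlotinib arrays were below all its DMSO arrays (log2 fold change -0.70, SE 0.058, limma adjusted p = 2.12e-08). ATG16L1, part of the enzyme that attaches LC3 to membranes, was lower, with a log2 fold change of -0.20. The remaining 5, MAP1LC3B, the cargo receptor SQSTM1, UVRAG, ATG9A and WIPI1, had log2 fold changes from -0.12 to 0.08 and did not pass. GABARAPL1, MAP1LC3B and BNIP3 have near-identical copies or pseudogenes in the genome, and the share of signal from these was not tested.

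**Figure D2:**
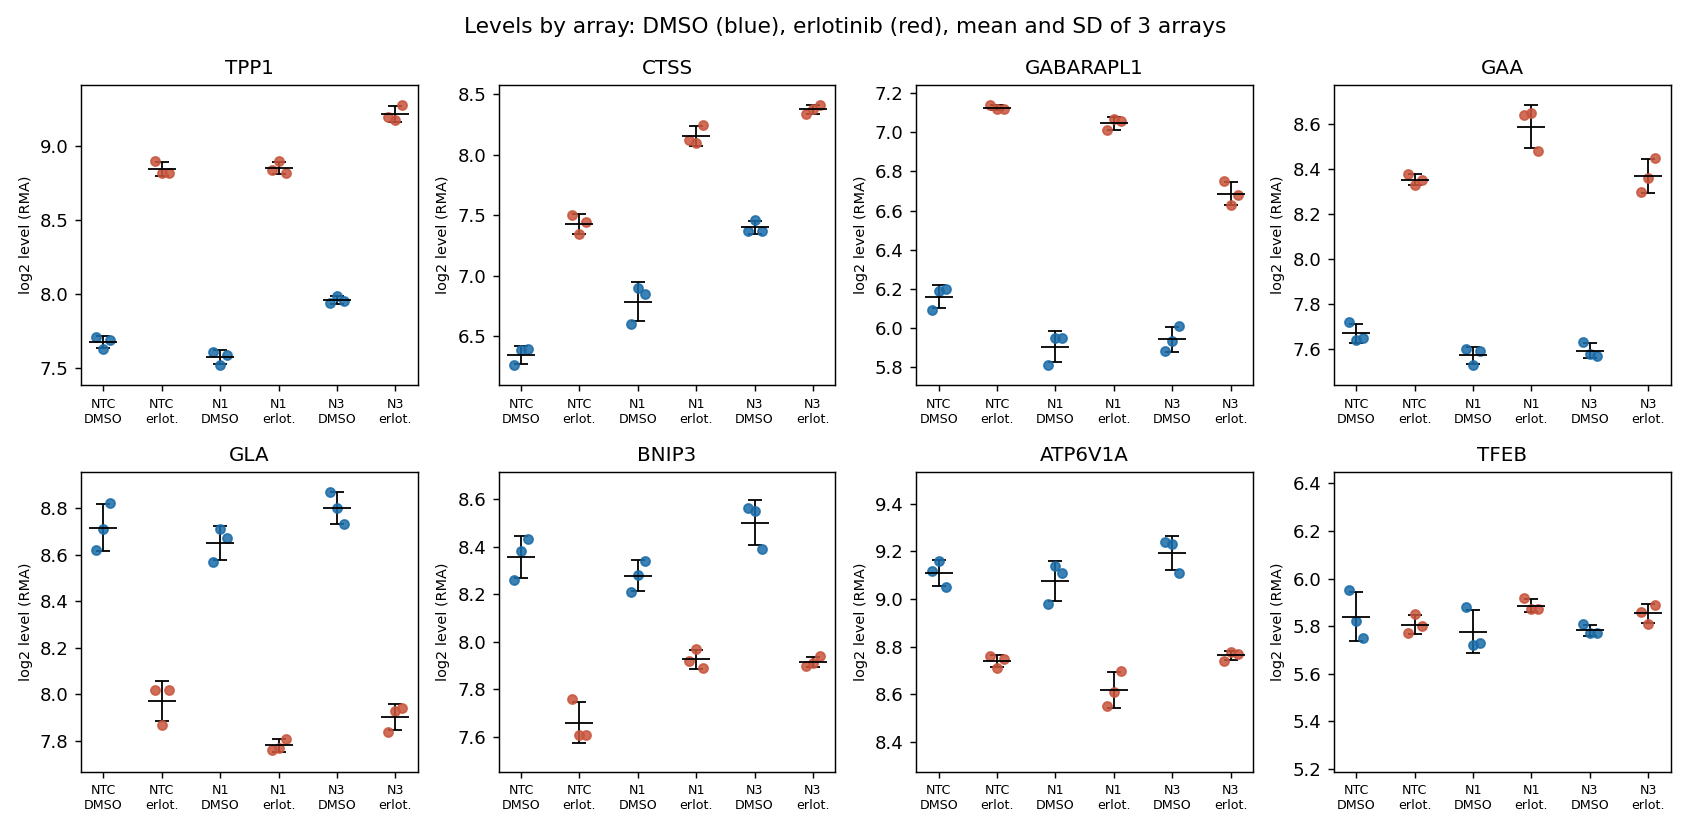
Log2 level on each array (points) with the group mean and SD (n = 3, lines) for 8 genes over the 6 groups; DMSO in blue and erlotinib in red, each panel with its own y axis. TPP1, CTSS, GABARAPL1 and GAA are higher and GLA, BNIP3 and ATP6V1A lower in erlotinib with each siRNA, while TFEB stays between 5.72 and 5.95 on all 18 arrays.

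Set beside the promoter letters, 30 of the genes tested had a window. Of the 7 with GTCACGTG, 5 (GAA, CTSA, CTSD, CLN3 and LAMP1) were higher with erlotinib in NTC cells and 0 were lower, with a median log2 fold change of 0.33, while MCOLN1 and ATP6V0D1 were not called. Of the 23 without these letters, 9 were higher and 8 lower, with a median of -0.03. Over all genes tested, 32.5% of the 455 with the letters and 24.7% of the 11214 without were higher. The shares that were lower were 25.3% with the letters and 28.1% without. With the shorter E-box, 6 of 11 were higher and 3 lower, against 8 of 19 higher and 5 lower without it. Over all genes, 25.2% with the E-box and 24.9% without were higher, and 29.4% and 27.9% were lower. With GTCACGTG directly followed by AC, 1 of 2 was higher and 0 lower, against 13 of 28 higher and 8 lower without. Over all genes, 26.32% with this palindrome and 24.95% without were higher, and 27.63% and 28.03% were lower. With the E-box directly between T and A, 4 of 6 were higher and 0 lower, against 10 of 24 higher and 8 lower without. The shares over all genes were 31.25% and 24.86% higher, and 23.96% and 28.09% lower. TPP1 and GABARAPL1, with large increases, are not among the 7 with GTCACGTG. There was no window to read for CTSS, CTSB, HEXA, PSAP and LAMP2, which were higher, nor for ATP6V1A, which was lower.

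The changes with erlotinib were next compared across the siRNAs, in groups that share no arrays. With N1, 22 of the 41 genes were higher and 7 lower with erlotinib (background 55.4%, of which 31.7% higher and 23.7% lower), and with N3, 19 were higher and 15 lower (background 52.6%, 24.9% and 27.7%). The medians of the 41 genes were 0.12 and 0.07, against 0.08 and 0.01 for all genes. After median centring the counts were 17 higher and 11 lower with N1, and 13 higher and 17 lower with N3, where centring moved the median of all genes from 0.01 to -0.09. Of the calls over all genes, 37.7% with N1 and 29.3% with N3 were then higher. In total, 14 genes were higher with erlotinib under all 3 siRNAs and 6 were lower, against 15.8% and 17.1% of all genes.

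The 14 genes were 6 proteases (TPP1, CTSS, CTSF, CTSA, CTSD and CTSB), 3 glycan hydrolases (GAA, HEXA and GUSB), PSAP, CLN3, TFE3, GABARAPL1 and ULK1. Among them, CTSB, GUSB and TFE3 lost their call in NTC cells after median centring. At the thresholds of the study's methods, 4 genes were higher with N1 (TPP1, CTSS, GABARAPL1 and GAA) and TPP1 alone with N3, against 0.992% and 1.32% of all genes. TPP1 had log2 fold changes of 1.17, 1.28 and 1.26 with NTC, N1 and N3, and CTSS of 1.08, 1.37 and 0.98. The 6 lower genes were GLA (-0.75, -0.87 and -0.90), BNIP3 (-0.70, -0.35 and -0.58), ATP6V1A (-0.37, -0.46 and -0.43), CD63, ATP6V0A1 and ATG16L1. With N1, CD63 lost its call without 1 of 3 arrays (N1 DMSO replicates 1 and 2 and N1 erlotinib replicate 1, adjusted p up to 0.0887), as did ATP6V0A1 without N1 DMSO replicate 3 or N1 erlotinib replicate 1 (adjusted p up to 0.0676). Of the 6 proton pump subunits, 2 were lower in NTC, 2 lower and 1 higher in N1, and 5 lower in N3, but for 0 of the 6 did the erlotinib response differ between N3 and NTC at an adjusted p under 0.05.

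**Figure D3:**
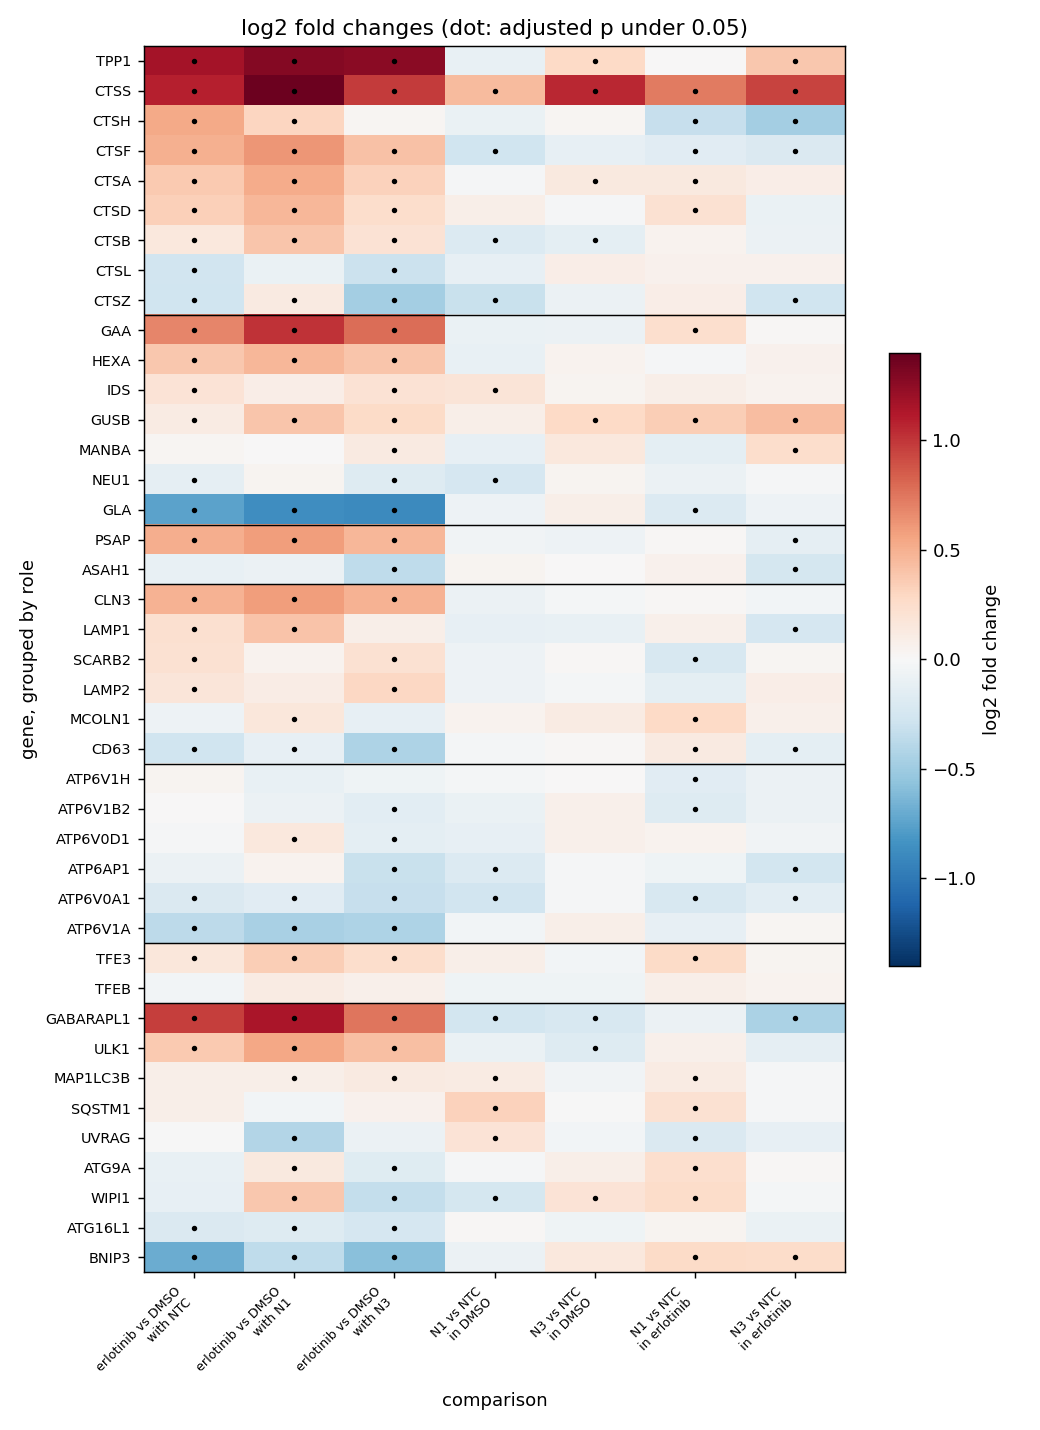
Log2 fold changes (color scale) of the 41 genes (rows, grouped by role) in the 3 comparisons of erlotinib with DMSO and the 4 comparisons of a knockdown with NTC (columns); a dot marks an adjusted p under 0.05. TPP1, CTSS and GABARAPL1 are red and GLA, BNIP3 and ATP6V1A blue in all 3 erlotinib columns, whereas CTSH (0.53, 0.30 and 0.03), CTSZ (-0.28, 0.12 and -0.48) and WIPI1 (-0.12, 0.38 and -0.34 with NTC, N1 and N3) differ between siRNAs.

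Whether a knockdown changed the response to erlotinib was tested by the difference of the differences. With N1 the response was more positive than with NTC for 8 of the 41 genes and more negative for 2, where 14.1% of all genes were called (8.04% positive and 6.04% negative). After median centring these counts were 3 and 1. With N3 it was more positive for 0 and more negative for 2 (background 5.91%, 1.63% and 4.27%), and 1 more negative after median centring. At an unadjusted p under 5e-04 with a fold of 2, no gene of the 41 passed in either test (background 0.0918% with N1 and 0.122% with N3).

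The proteases CTSH and CTSZ were called in both tests, which share the NTC arrays and are not independent. CTSH was 9.51, 9.57 and 9.58 in NTC DMSO and 10.11, 10.04 and 10.09 in NTC erlotinib, but 9.65, 9.55 and 9.54 in N3 DMSO and 9.58, 9.65 and 9.59 in N3 erlotinib. The increase measured with NTC was not detectable with N3, where the arrays overlapped, and the difference of the responses was -0.50 (SE 0.055, limma adjusted p = 3.62e-05). With N1 it was 9.45, 9.48 and 9.44 in DMSO and 9.77, 9.75 and 9.75 in erlotinib, an intermediate increase of 0.30 that differed from that of NTC by -0.23 (limma adjusted p = 0.0155), or by -0.27 after median centring (adjusted p = 0.0556).

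CTSZ and WIPI1, whose array values are given after they had been seen, differed between N1 and NTC in their response to erlotinib. CTSZ was 8.75, 8.74 and 8.81 in NTC DMSO and 8.53, 8.46 and 8.48 in NTC erlotinib, and 8.45, 8.46 and 8.47 in N1 DMSO and 8.62, 8.60 and 8.53 in N1 erlotinib. The N1 DMSO arrays were below all NTC DMSO arrays and overlapped with those of NTC in erlotinib, and the responses differed by 0.40 (SE 0.054, limma adjusted p = 0.000318). With N3 CTSZ fell by 0.48 with erlotinib, which differed from NTC by -0.20 (limma adjusted p = 0.0367, but from 0.0649 to 0.108 when any of 8 of the 12 arrays was left out and 0.0599 after median centring). The higher value with N1 (0.12) lost its call without N1 erlotinib replicate 1 (adjusted p = 0.0551) and after median centring (adjusted p = 0.648).

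WIPI1, which binds the phosphoinositide made on growing autophagosomes, was 8.59, 8.59 and 8.61 in NTC DMSO and 8.53, 8.42 and 8.48 in NTC erlotinib. With N1 it was 8.28, 8.41 and 8.36 in DMSO and 8.71, 8.77 and 8.71 in erlotinib. It started lower and ended higher with N1, and the responses differed by 0.50 (SE 0.071, limma adjusted p = 0.000462). UVRAG, a subunit of a lipid kinase complex of autophagy and endosomes, differed the other way by -0.40, with a log2 fold change of -0.0033 in NTC cells and a fall of 0.41 with N1.

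**Figure D4:**
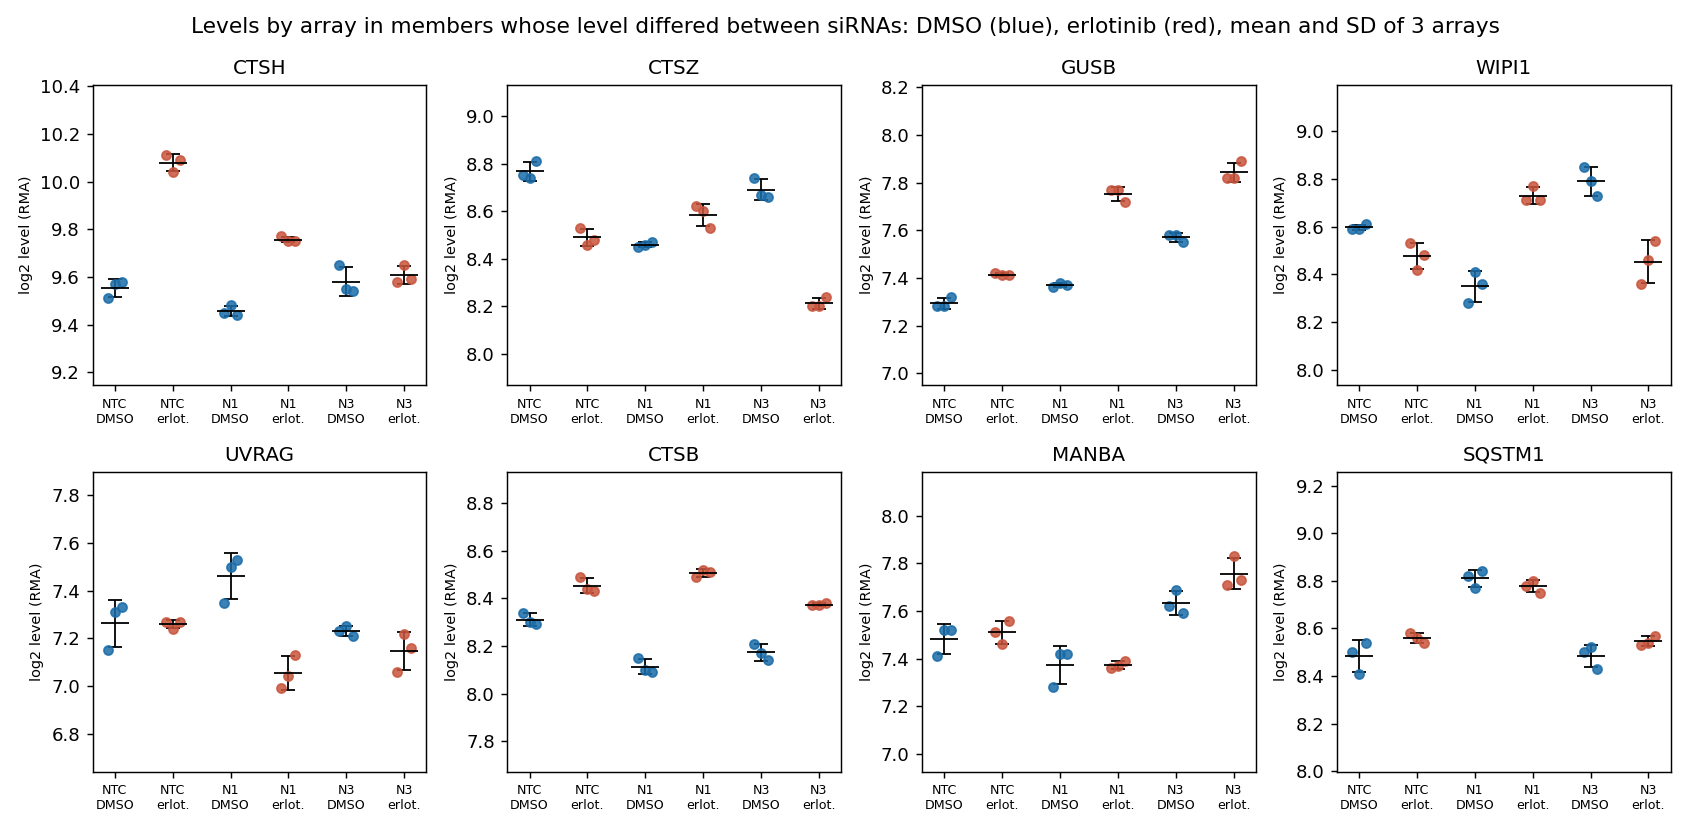
Log2 level on each array (points) with the group mean and SD (n = 3, lines) for 8 genes with differences between siRNAs; DMSO in blue and erlotinib in red, each panel with its own y axis. CTSH in erlotinib lies between 10.04 and 10.11 with NTC and between 9.58 and 9.65 with N3, and GUSB in erlotinib lies at 7.41 and 7.42 with NTC and at 7.72 or above with N1 and N3.

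In erlotinib itself, the state in which the study compared the knockdowns, both knockdowns were set against the same 3 NTC arrays, so their values stand side by side and are not independent. With N1, 13 of the 41 genes were higher and 8 lower (background 21%, 11.9% higher and 9.15% lower), and 10 and 3 after median centring. With N3, 5 were higher and 10 lower (background 18.5%, 7.94% and 10.5%), and 5 and 8 after median centring. The medians of the 41 genes were 0.05 and -0.02, against 0.03 and -0.01 for all genes.

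The genes highest against NTC were CTSS and GUSB with either siRNA. CTSS was 8.12, 8.10 and 8.25 with N1 and 8.34, 8.38 and 8.41 with N3, against 7.50, 7.34 and 7.44 with NTC. The groups did not overlap, and the log2 fold changes were 0.73 (limma adjusted p = 1.71e-06) and 0.95 (limma adjusted p = 6.09e-08). GUSB was 7.77, 7.77 and 7.72 with N1 and 7.82, 7.82 and 7.89 with N3, against 7.42, 7.41 and 7.41 with NTC (log2 fold changes 0.34 and 0.43).

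The lowest gene with either siRNA was CTSH, at -0.32 with N1 (limma adjusted p = 2.31e-05) and -0.47 with N3 (limma adjusted p = 2.60e-07). With N1 it was followed by ATP6V0A1 and SCARB2, both with a log2 fold change of -0.23. ATP6V0A1 was 7.89, 8.02 and 7.97 with N1 against 8.22, 8.18 and 8.16 with NTC, and SCARB2 was 8.90, 8.93 and 9.06 against 9.20, 9.19 and 9.18. With N3 the next was GABARAPL1, at 6.75, 6.63 and 6.68 against 7.14, 7.12 and 7.12, a log2 fold change of -0.44 (SE 0.049, limma adjusted p = 7.13e-06). None of these arrays overlapped with NTC. The N3 erlotinib arrays of GABARAPL1 remained above all DMSO arrays.

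Among the other genes called with N1 in erlotinib, MCOLN1 (0.28), TFE3 (0.27), BNIP3 (0.27), WIPI1 (0.25), GAA (0.24), ATG9A (0.23), SQSTM1 (0.22) and CTSD (0.21) were higher, and ATP6V1B2 (-0.18) was lower. CTSA, CD63 and MAP1LC3B (0.14, 0.13 and 0.11) and ATP6V1H, CTSF, GLA and UVRAG (-0.16, -0.16, -0.19 and -0.21) were called too, but each lost its call when at least 3 of the 6 arrays were left out in turn, with adjusted p up to 0.127. With N3, TPP1 (0.37), BNIP3 (0.26) and MANBA (0.25) were higher, and CTSZ (-0.28), ATP6AP1, an accessory subunit of the pump (-0.25), ASAH1 (-0.24), LAMP1 (-0.23) and CTSF (-0.21) were lower. CTSF lost its call without N3 erlotinib replicate 4 (adjusted p = 0.0504). CD63, ATP6V0A1 and PSAP, with log2 fold changes of -0.14, -0.14 and -0.13, lost theirs in at least 4 of 6 such fits, with adjusted p up to 0.206.

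TFEB in erlotinib was 5.92, 5.87 and 5.87 with N1 and 5.86, 5.81 and 5.89 with N3, with log2 fold changes against NTC of 0.08 and 0.05 that did not pass (limma adjusted p = 0.300 and 0.632). TFE3 was 8.09, 8.08 and 7.95 with N1 and 7.83, 7.77 and 7.84 with N3. The N1 arrays were above all NTC arrays, and the log2 fold changes were 0.27 (limma adjusted p = 0.000795) and 0.04 (limma adjusted p = 0.658).

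Set directly against each other in erlotinib, N3 was higher than N1 for 7 of the 41 genes and lower for 18 (background 34.6%, 13.8% higher and 20.9% lower), and higher for 4 and lower for 18 after median centring. The genes lower with N3 included CTSZ (-0.37), GABARAPL1 (-0.36), CTSD and ASAH1 (both -0.31), LAMP1 (-0.30), WIPI1 (-0.28), CD63 (-0.27), SQSTM1 and TFE3 (both -0.23) and GAA (-0.22). Higher with N3 were MANBA (0.38), TPP1 (0.37), SCARB2 (0.25), LAMP2 and CTSS (both 0.22), ATP6V1A (0.14) and GUSB (0.09). GUSB lost this call when any of the 6 arrays was left out (adjusted p up to 0.167), ATP6V1A in 5 of 6 such fits (up to 0.178), CTSS in 4 (up to 0.0866) and PSAP, which was lower (-0.14), in 3 (up to 0.0709). Of the 9 autophagy factors, 6 were lower with N3 than with N1 and 0 were higher.

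In DMSO the knockdowns called fewer of the genes. With N1, 5 of the 41 were higher and 8 lower (background 14.7%, 7.76% higher and 6.97% lower), and with N3 5 were higher and 3 lower (background 12%, 7.25% and 4.8%). After median centring the counts were 3 higher and 6 lower with N1, and 4 higher and 0 lower with N3. CTSS was higher with both, at 6.60, 6.90 and 6.85 with N1 and 7.37, 7.46 and 7.37 with N3 against 6.26, 6.38 and 6.39 with NTC (log2 fold changes 0.44 and 1.06). CTSS with N3 was the only one of the 41 to reach a fold of 2 with an unadjusted p under 5e-04 in DMSO (background 0.251%). The N3 DMSO arrays lay within the range of the NTC erlotinib arrays. SQSTM1 (0.33) was higher with N1 and CTSZ (-0.31), CTSF (-0.28), ATP6V0A1 (-0.27), GABARAPL1 (-0.26), WIPI1 (-0.25), NEU1 (-0.24) and CTSB (-0.20) were lower.

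Of the other calls with N1 in DMSO, UVRAG (0.20), IDS (0.18), MAP1LC3B (0.11) and ATP6AP1 (-0.19) each lost theirs when any of at least 3 of the 6 arrays was left out, with adjusted p up to 0.166. MAP1LC3B also lost it with the replicate number as a block (limma adjusted p = 0.0881). With N3 in DMSO, TPP1 and GUSB (both 0.28) were higher and GABARAPL1 (-0.22) was lower. WIPI1 (0.19), CTSA (0.14), CTSB (-0.14) and ULK1 (-0.18) lost their calls in at least 2 of 6 such fits, with adjusted p up to 0.200. N3 against N1 in DMSO gave 17 higher and 4 lower (background 17.4%, 9.91% and 7.48%), or 10 and 2 after median centring, with CTSS (0.62), WIPI1 (0.44) and TPP1 (0.39) at the top and SQSTM1 (-0.33) at the bottom.

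Genes of the same pathways beyond the 43 were taken from 5 wider lists of 153 genes, of which 136 were tested, and in NTC cells 40 of them were higher and 29 lower with erlotinib (background 24.6% and 25.4%). Of 30 other hydrolases and activators, 10 were higher, led by the cathepsin CTSO (0.87), SIAE (0.41) and CTSK (0.27), and 8 were lower, with GGH (-0.99), CTSC (-0.79) and CTSV (-0.76) at the bottom. Of 28 other membrane proteins and sorting factors, 12 were higher, led by HGSNAT (0.43), GGA2 (0.36) and SLC17A5 (0.35), and 6 were lower, among them CD68 (-0.92), TPCN1 (-0.43) and LAPTM4B (-0.32). The other proton pump subunits moved little: of 16, only ATP6V1E2 (0.22) was higher and 4 were lower, among them ATP6V0C (-0.22), ATP6V0B (-0.20) and ATP6V1E1 (-0.17).

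Of 40 other autophagy factors, 13 were higher and 4 lower. ATG14 (0.69), which brings a lipid kinase complex to the autophagosome, GABARAP (0.51) and the cargo receptor OPTN (0.49) led the former, and ATG4A (-0.54), ATG3 (-0.30) and WDR45B (-0.25) the latter. Of 22 genes on the list for TFEB control by mTORC1, which includes the related transcription factor MITF, 4 were higher and 7 lower. RRAGB (0.75), a small GTPase that recruits mTORC1 to lysosomes, TSC1 (0.57) and FNIP1 (0.34) were at the top, and RHEB (-0.31), the small GTPase that activates mTORC1, MITF (-0.23) and NPRL2 (-0.17) at the bottom. Over the 136 genes, 62 were higher and 24 lower with erlotinib under N1 (background 31.7% and 23.7%), and 37 and 45 under N3 (24.9% and 27.7%). The difference in response from NTC was positive for 19 and negative for 5 with N1 (8.04% and 6.04%), and positive for 2 and negative for 8 with N3 (1.63% and 4.27%). Against NTC in erlotinib, 21 were higher and 9 lower with N1 (11.9% and 9.15%) and 16 higher and 20 lower with N3 (7.94% and 10.5%). In DMSO these counts were 10 and 25 with N1 (7.76% and 6.97%) and 13 and 7 with N3 (7.25% and 4.8%). N3 against N1 gave 27 and 8 in DMSO (9.91% and 7.48%) and 14 and 41 in erlotinib (13.8% and 20.9%).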

How the data were processed

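RNA of 18 samples of HCC4006 cells was hybridised to Affymetrix Human Transcriptome 2.0 arrays. The authors quantified the signals with the manufacturer's Expression Console, and deposited log2 values with 2 decimals that were background corrected, normalized and summarized per feature, by RMA per the labels. For the software version and annotation build, nothing is given in the sources used here. Normalization acts on whole arrays, so a level is comparable between arrays for a feature and not between features.

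Of 70523 features, 23784 name 1 gene, 1540 several and 45199 none in the platform annotation. The noise filter required 3 or more arrays on which a feature exceeded the 50th percentile of all features there (the study's own noise limit is not stated), and for each gene the feature of the highest mean was used, which left 16338 genes. NEU1 has 8 features and the other 40 tested genes have 1 each. Group means of all 18 arrays were fitted with limma 3.58.1 in R 4.3.3 (lmFit, contrasts.fit and eBayes), with Benjamini-Hochberg adjustment over all genes tested and calls at an adjusted p under 0.05. The number of arrays limits the precision: the median within-group SD was 0.056 for the 41 genes and 0.073 for all genes. The procedure was tested on simulated data in which few genes changed, in the NTC erlotinib group only, with independent noise and no shift between arrays. That setting differs from these data, so it does not test the calls made here. The 43 genes, the wider lists and the markers were chosen with earlier results of these data known.

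By rule, array values were given for the 3 highest and 3 lowest called genes in erlotinib against DMSO with NTC, and for TFEB and TFE3. They were also given for the 2 highest and 2 lowest called genes in each knockdown against NTC in erlotinib. Other genes, and the comparison of N3 with N1, were given by log2 fold change. CTSZ and WIPI1 were added after their values were seen. From the wider lists, up to 3 called genes in each direction were named. The deviations of same-numbered arrays had every correlation above 0.1 only for NTC DMSO and N1 DMSO (0.687, 0.243 and 0.493), a hint from the data that no label states. NOTCH1 and NOTCH3 served as checks of the knockdown. Alternatives were other noise filters, the mean of a gene's features, quantile normalization, median centring, a mean-variance trend with robust settings, only the compared arrays, a replicate block, the thresholds of the study's methods and each array left out in turn. Promoters are from RefSeq (GRCh38.p14), with the start listed at the top of the table where a gene has several. Python 3.11.15 was used for promoters and figures.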

Additional observations from a re-analysis of the deposited data

Results flagged for a closer look

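The response to erlotinib differed between N1 and NTC, by a test of the difference itself in limma, for 10 of the 41 genes (14.1% of all genes tested). The difference of the log2 fold changes was 0.50 for WIPI1, 0.40 for CTSZ, 0.35 for BNIP3, 0.33 for GAA, 0.26 for GUSB, 0.25 for CTSB, 0.25 for ATG9A and 0.23 for MCOLN1, and it was -0.40 for UVRAG and -0.23 for CTSH. The adjusted p ran from 0.000318 for CTSZ to 0.0340 for MCOLN1. ATG9A and MCOLN1 each lost the call when any of 8 of the 12 arrays was left out, with adjusted p up to 0.0868 and 0.0940. Between N3 and NTC the response differed for CTSH, by -0.50 (limma adjusted p = 3.62e-05), and for CTSZ, by -0.20 (limma adjusted p = 0.0367). CTSZ lost this call when any of 8 of the 12 arrays was left out, with adjusted p up to 0.108.

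After median centring, 4 of the 10 calls with N1 were kept, and 1 of the 2 with N3. BNIP3 then had a difference of 0.31 (adjusted p = 0.0906), GUSB of 0.22 (0.0643), CTSB of 0.21 (0.0594) and CTSH with N1 of -0.27 (0.0556). The part of the array medians in these differences was not tested beyond that.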

How the results depend on the processing

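Of the 28 genes called in NTC cells with erlotinib, 21 kept their call under every alternative other than the thresholds of the study's methods, as did 22 of 29 with N1 and 27 of 34 with N3. The knockdown calls were kept for 13 of 21 genes with N1 and 11 of 15 with N3 in erlotinib, for 4 of 13 and 3 of 8 in DMSO, and for 20 of 25 and 12 of 21 in N3 against N1 in erlotinib and DMSO. Of the differences in response, 4 of 10 with N1 and 1 of 2 with N3 were kept. At the thresholds of the study's methods, the 41 genes gave 2 higher with erlotinib in NTC, 4 in N1 and 1 in N3, and 1 higher with N3 in DMSO, and the wider lists gave 1 higher with erlotinib in N1, 1 lower in N3, and 1 higher with N1 in DMSO and in erlotinib; all other counts were 0.

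Apart from those thresholds, which moved 43 of 44 counts by over 1.5 times, median centring moved 22 of 44, more than any other change of processing. For the 41 genes it gave 11 lower with erlotinib in N1, 3 higher with N1 and 0 lower with N3 in DMSO, 3 lower with N1 in erlotinib, 10 higher and 2 lower in N3 against N1 in DMSO, 4 higher in N3 against N1 in erlotinib, and responses of 3 more positive and 1 more negative with N1 and 1 more negative with N3. For the wider lists it gave 37 higher with erlotinib in N1 and 20 in N3, 9 lower with N1 and 4 lower with N3 in DMSO, 2 lower with N1 and 8 higher with N3 in erlotinib, 15 higher and 3 lower in N3 against N1 in DMSO, 7 higher in N3 against N1 in erlotinib, and responses of 5 positive and 0 negative with N1 and 0 positive with N3. MAP1LC3B with erlotinib in N1, at 0.09, turned to -0.0033 (adjusted p = 0.967). Over all genes, the share of calls that were higher went from 49.2% to 37.6% with erlotinib in NTC, from 57.2% to 37.7% in N1 and from 47.4% to 29.3% in N3. It went from 52.7% to 75.9% with N1 and from 60.2% to 76.2% with N3 in DMSO, from 39.8% to 28.4% for N3 against N1 in erlotinib, and from 27.7% to 14.3% for the response with N3.

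Quantile normalization gave, for the 41 genes, 14 lower with N1 in DMSO, 11 higher in N3 against N1 in erlotinib, 14 more positive responses with N1, and 1 positive and 4 negative with N3, and for the wider lists 17 lower with N1 in erlotinib and responses of 29 positive and 8 negative with N1 and 5 positive with N3. Without a noise filter, 3 of the 41 genes were higher with N1 in DMSO and 1 had a more negative response with N3, and the wider lists gave 3 negative with N1 and 0 positive with N3. A filter at the 75th percentile gave responses of 1 positive and 5 negative with N3 in the 41 genes, and 29 positive and 8 negative with N1 and 1 positive with N3 in the wider lists. The mean of all features of a gene moved none of these counts by over 1.5 times. A trend with robust settings gave 4 negative responses with N3 in the 41 genes and 1 positive in the wider lists. With only the compared arrays in the fit, 2 of the 41 genes were higher and 2 lower with N1 in DMSO and 1 lower with N3. The wider lists then gave 3 higher and 7 lower with N1 and 4 lower with N3 in DMSO, 12 higher and 4 lower with N1 and 12 lower with N3 in erlotinib, 26 lower in N3 against N1 in erlotinib, and responses of 10 positive and 0 negative with N1 and 1 positive with N3.

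Same-numbered deviations from the group means correlated from -0.388 to 0.687. Every value exceeded 0.1 in 1 of 10 pairs of groups, NTC DMSO with N1 DMSO. In the other 9 no label pairs the arrays, and so few values cannot show whether they are paired. With the replicate number as a block, the negative responses with N1 in the wider lists went from 5 to 3, and 11 calls in the 41 genes were lost, of which 1 (MAP1LC3B, adjusted p = 0.0881) was in N1 against NTC in DMSO, where 4 genes were higher and 8 lower. The N3 erlotinib arrays carry other numbers and could not enter that fit.

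Leaving out each array in turn gave, for the 41 genes, 18 to 19 higher and 8 to 9 lower with erlotinib in NTC, 20 to 23 and 5 to 8 in N1, and 18 to 19 and 14 to 16 in N3. With N1 in DMSO it gave 2 to 4 higher and 7 to 9 lower (2 higher without NTC DMSO replicate 1, N1 DMSO replicate 2 or 3), with N3 3 to 5 and 1 to 3 (3 higher without N3 DMSO replicate 1 or 2, and 1 lower without NTC DMSO replicate 1, N3 DMSO replicate 2 or 3). In erlotinib it gave 10 to 12 and 4 to 8 with N1 (4 lower without N1 or NTC erlotinib replicate 1) and 5 and 6 to 9 with N3 (6 lower without N3 erlotinib replicate 4). N3 against N1 gave 11 to 15 and 2 to 4 in DMSO and 4 to 6 and 17 to 20 in erlotinib. Positive responses with N1 ran from 6 to 14 (14 without N1 erlotinib replicate 3) and negative from 2 to 3, and with N3 they were 0 and 1 to 4 (4 without N3 erlotinib replicate 6). For the wider lists the ranges were 32 to 41 and 25 to 28 with erlotinib in NTC, 50 to 63 and 18 to 29 in N1, 32 to 36 and 38 to 45 in N3, 4 to 11 and 18 to 27 with N1 and 8 to 11 and 5 to 8 with N3 in DMSO, 11 to 24 and 3 to 13 with N1 and 12 to 15 and 12 to 19 with N3 in erlotinib, 18 to 27 and 5 to 13 in N3 against N1 in DMSO and 8 to 17 and 25 to 42 in erlotinib, and responses of 10 to 30 positive and 0 to 12 negative with N1 and 0 to 2 and 6 to 10 with N3. The causes of these shifts were not tested.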
